A study of Rattus norvegicus with 8 samples.

Results

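The effect of AICAR in dexamethasone-treated rat liver was read from 4 of the 8 arrays of this study, the 2 of rats given dexamethasone plus AICAR against the 2 of rats given dexamethasone, over all 31042 probe sets that are not array controls. Resident macrophage transcripts, several lipogenic genes and many glucocorticoid-induced genes were lower with AICAR added, and sterol synthesis and endoplasmic reticulum chaperone genes were higher. The rats were male Sprague-Dawley animals weighing 180 to 200 g. Every animal had an injection into the abdominal cavity, of AICAR at 0.7 g/kg or saline, and another into muscle, of dexamethasone at 1.5 mg/kg or saline. The dexamethasone group therefore also received abdominal saline, the AICAR group received saline into muscle, and the vehicle group received saline at both sites. Whole livers were taken 8 h later. The vehicle and AICAR arrays, also 2 each, are used here to place the comparison. Feeding state is not given in the sources used here. The labels do not state that both arrays of a group are separate animals, so the p-values below measure the spread between arrays, which may be technical.

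Dexamethasone binds the glucocorticoid receptor, a transcription factor that in hepatocytes switches on genes of glucose output and amino acid breakdown and that in immune cells represses inflammatory genes. AICAR is a nucleoside that cells convert to ZMP, a mimic of AMP that activates the energy sensor AMPK. Active AMPK is known to restrain the synthesis of fatty acids, sterols and glucose in liver, and ZMP also acts on other AMP-sensitive enzymes. The design asked whether AMPK activation alters what a glucocorticoid does in this tissue.

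Each value is a log2 expression level from RMA, which summarises the probes of a probe set, and each difference is on that scale with its standard error after the ± sign. A probe set was called when its limma p-value, adjusted over all probe sets, was under 0.05, and "rose" and "fell" are used of called genes alone. RMA gives no detection call. Where a group mean lay below 3.84, the lowest lower quartile of any array, the size of a difference is uncertain. The 2 arrays of each group correlated at 0.997 to 0.998 over probe sets, and dexamethasone arrays correlated with combination arrays at 0.987 to 0.988. The 14 hepatocyte markers measured summed to between 169950 and 173869 linear units on every array, so markers of the labelled tissue were present. The brightest genes weigh most in this sum and RMA sets all arrays to a common distribution, so the sum cannot show that each marker was steady. In the combination 2 of the 14 were called higher than in vehicle and 6 lower, beside 34.4% of all genes called. Some array controls moved with the comparison. The 3′ minus 5′ difference of the actin control was 2.04 ± 0.01 (SD, n = 2) after dexamethasone and 1.80 ± 0.04 after both agents, that of GAPDH was 0.42 ± 0.02 and 0.33 ± 0.02, and the 5S ribosomal RNA control read 6.59 ± 0.05 and 7.51 ± 0.06. The part of RNA quality or labelling in the results was not tested.

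The combination differed from dexamethasone at 6233 of 31042 probe sets, or 20.1%, of which 3156 (10.2%) were higher and 3077 (9.91%) lower. At a change of at least 2-fold there were 548 (1.77%), 223 higher (0.718%) and 325 lower (1.05%). The median difference over all probe sets was -0.00032. Counted as genes, with the brightest probe set standing for each, 3606 of 14217 were called (25.4%), 1995 higher (14.0%) and 1611 lower (11.3%). The number of probe sets called fell to 3698 without the first combination array and 3823 without the second. Gene lists are described below by how many measured members were called, with no test of the list, and read against these shares. Where a list had 1 or 2 members called in a direction, the count could go to 0 or 1 without a single array.

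**Figure D1:**
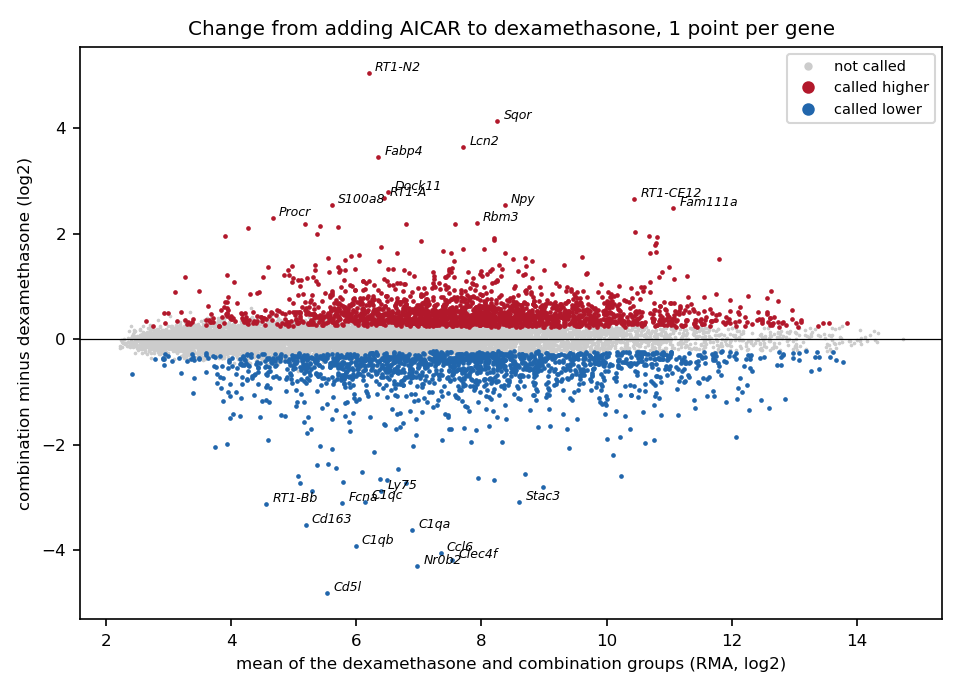
Difference between the combination and dexamethasone groups (vertical axis, log2) against the mean level of both groups (horizontal axis, RMA value, log2), with 1 point per gene. Red points were called higher and blue points lower; the 12 largest rises and falls are named, from 5.05 for RT1-N2 to -4.81 for Cd5l.

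The deepest falls were in genes of Kupffer cells, the macrophages that line the liver sinusoids and clear particles and dying cells from portal blood. Cd5l, which encodes a secreted scavenger receptor-like protein of tissue macrophages, read 9.85 and 9.75 in vehicle, 7.94 and 7.93 after dexamethasone, 10.10 and 10.07 after AICAR alone and 3.10 and 3.15 after both. Both combination arrays lay far below all others. Cd5l fell by 4.81 ± 0.07 (28.1-fold lower, adjusted p = 6.85e-09), to a mean under 3.84, so its size is uncertain. Of the 2 probe sets of Cd5l only this 1 was called. Clec4f, a lectin gene that marks Kupffer cells in rodents, read 9.54 and 9.71 after dexamethasone and 5.40 and 5.50 after both, and fell by 4.18 ± 0.09 (18.1-fold lower, adjusted p = 6.45e-08). The chemokine gene Ccl6 read 9.29 and 9.45 after dexamethasone and 5.37 and 5.28 after both, and fell by 4.05 ± 0.08. These genes were among the 12 largest falls in the whole comparison. Nr0b2, described below with bile acid synthesis, fell more than all of them but Cd5l.

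The 3 chains of complement C1q, which liver macrophages make, fell together. C1qa read 9.85 and 9.86 in vehicle, 8.62 and 8.79 after dexamethasone, 10.23 and 10.27 after AICAR alone and 5.15 and 5.01 after both, and fell by 3.62 ± 0.09 (adjusted p = 9.75e-08). C1qb fell by 3.92 ± 0.22 and C1qc fell by 3.08 ± 0.23, with combination arrays that were less alike than for C1qa (3.65 and 4.41 for C1qb and 4.15 and 5.05 for C1qc). All 3 genes kept clear of the dexamethasone arrays. The haemoglobin scavenger receptor gene Cd163 fell by 3.52 ± 0.10 to a mean under 3.84, and the ficolin gene Fcna, another secreted lectin of macrophages, fell by 3.10 ± 0.14. Ly75, an endocytic receptor gene of dendritic cells, fell by 2.88 ± 0.12 after standing 3.05 above vehicle with dexamethasone.

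Of 15 macrophage markers measured, of 19 on the list, 12 fell and 2 rose, with a median of -2.72 against 0.015 over all genes. Their summed linear level was 12598 and 12439 in vehicle, 9049 and 9480 after dexamethasone, 14161 and 14028 after AICAR alone, and 6559 and 6568 after both. Of the 15, 4 had combination means below 3.84. The exceptions are named after their values were seen. The lipopolysaccharide co-receptor gene Cd14 rose by 0.45 ± 0.07 and the lysozyme gene Lyz2 rose by 0.26 ± 0.07, while the perforin-like gene Mpeg1 (difference -0.12 ± 0.07) was not called. Cd14 and Lyz2 are also expressed by monocytes and neutrophils. The 2 rises came to 1 when any single array other than the second dexamethasone array was left out. In whole liver, fewer macrophages and less of these RNAs per macrophage cannot be told apart.

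**Figure D2:**
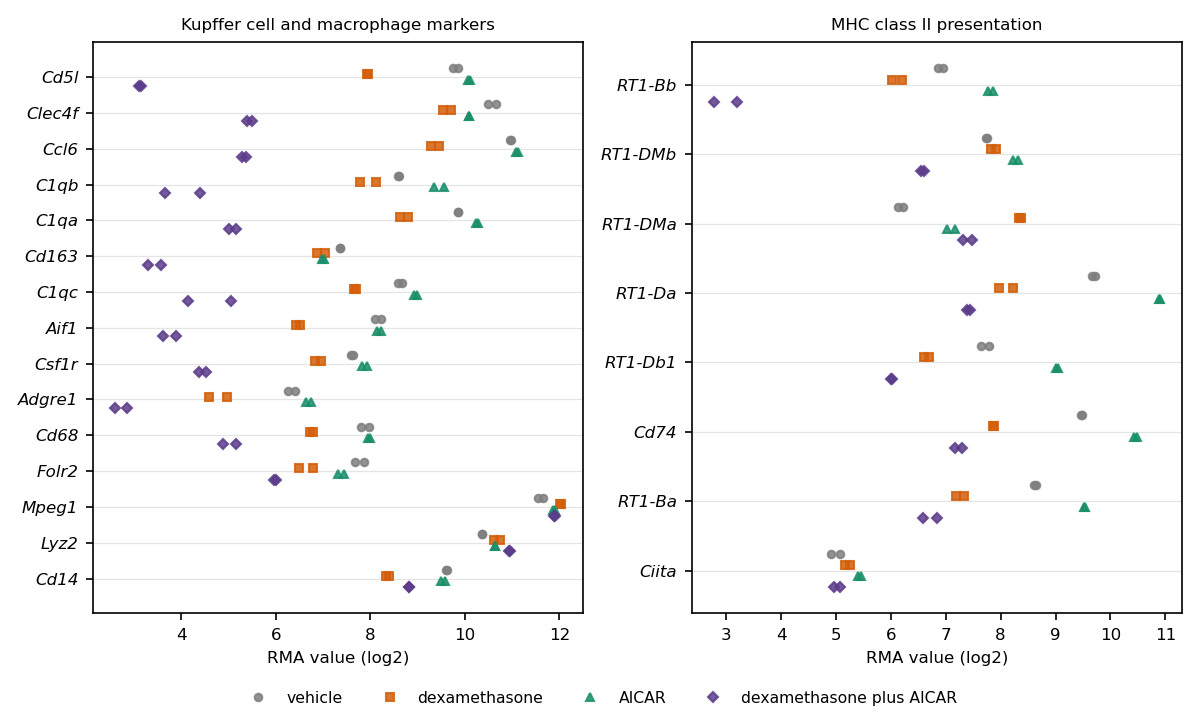
RMA values (horizontal axis, log2) of each array for the macrophage markers (left) and the MHC class II genes (right), 2 arrays per group, ordered by the difference between combination and dexamethasone. The combination arrays of Cd5l, at 3.10 and 3.15, lie below those of every other group, while the arrays of Mpeg1, Lyz2 and Cd14 lie close together.

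Genes of MHC class II presentation, by which macrophages, dendritic cells and B cells display peptides to T cells, were lower as well. Of 8 measured, 7 fell, with a median of -0.66, and the remaining gene, their master regulator Ciita, was not called (-0.19 ± 0.09). RT1-DMb, part of the peptide-loading complex, read 7.83 and 7.91 after dexamethasone and 6.56 and 6.60 after both, and fell by 1.29 ± 0.07 (adjusted p = 9e-06). The invariant chain gene Cd74 read 9.46 and 9.49 in vehicle, 7.87 and 7.87 after dexamethasone, 10.48 and 10.43 after AICAR alone and 7.29 and 7.17 after both. Its order ran from AICAR alone, the highest, through vehicle and dexamethasone to the combination, and it fell by 0.64 ± 0.07 in this comparison. Without dexamethasone all 8 of these genes were called higher after AICAR than in vehicle, against 6.22% of all genes, and the AICAR effect differed between rats with and without dexamethasone for all 8 (interaction, called lower, against 8.05% of all genes, median -1.85). RT1-Bb fell by 3.13 ± 0.13, but its mean after both was under 3.84 and a second probe set of that gene was called in the opposite direction. RT1 probe sets of class II may read near-identical copies, and the haplotypes of the animals are not known. The values of the RT1 genes among these 8 are therefore uncertain.

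Markers of other cell types moved less. Of 18 lymphocyte markers 4 fell, among them the leukocyte phosphatase gene Ptprc, which macrophages share (-1.57 ± 0.10). The cytotoxic granule gene Gzma fell by 0.86 ± 0.16. The other calls of that list, Il7r (-0.43) and Nkg7 (-0.41), were lost without 1 or more arrays, which left 2 lymphocyte genes called. Of 9 neutrophil markers 3 rose. The alarmin gene S100a8 read 5.29 and 5.57 in vehicle, 4.05 and 4.63 after dexamethasone, 6.23 and 6.10 after AICAR alone and 6.88 and 6.87 after both, and rose by 2.54 ± 0.17. Its partner S100a9 rose by 2.18 ± 0.09, and the growth factor receptor gene Csf3r, a dim neutrophil marker, rose by 0.29 ± 0.08 with a call that single arrays could end (adjusted p = 0.18 without the first combination array). Of 17 sinusoidal endothelial markers 4 fell, including the mannose receptor gene Mrc1 (-1.05), and 2 rose, including Lyve1 (0.37), which came to 1 without any single array of the 4 compared. Of 18 stellate cell and fibroblast markers 6 rose, including the matrix gene Lum (1.11), and 2 fell, including Lrat, the retinol-storing enzyme of stellate cells (-1.32). Of 7 cholangiocyte markers 2 rose, Spp1 (1.10) and Prom1 (0.66). Of 14 hepatocyte markers 3 fell and 1 rose, all by under 0.5, with a median of -0.041, and the falls came to 1 without any single array of the 8. The part of these cell types in the other results was not tested.

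Glucocorticoid receptor targets were mostly lower with AICAR added. Of 30 measured, 21 fell and 3 rose, with a median of -0.59, and 22 of the 30 had been higher after dexamethasone than in vehicle (median 0.79), against 8.37% of all genes. Of those 22, 18 fell when AICAR was added. The 2 comparisons share the dexamethasone arrays, so chance error in those arrays moves them in opposite directions. Falls were also common among all genes raised at least 2-fold by dexamethasone, a stricter cut-off. Of those 144, 97 (67.4%) were reversed by the rule given below. The 18 of 22 are therefore not read as particular to receptor targets. Tsc22d3 encodes GILZ, a mediator of glucocorticoid action on inflammation. It read 8.37 and 8.09 in vehicle, 10.30 and 10.24 after dexamethasone, 8.46 and 8.51 after AICAR alone and 9.69 and 9.64 after both. The combination lay between dexamethasone and vehicle, and Tsc22d3 fell by 0.61 ± 0.10 (adjusted p = 0.00268), so that 29.7% of its dexamethasone difference was undone. The metallothionein gene Mt2A read 9.42 and 9.39 in vehicle, 12.70 and 12.64 after dexamethasone, 11.27 and 11.26 after AICAR alone and 11.70 and 11.64 after both, and fell by 1.00 ± 0.07, which undid 30.6%. AICAR alone gave Mt2A a difference of 1.86 from vehicle, so the sign of the AICAR effect turned with dexamethasone (interaction -2.86, adjusted p = 1.57e-06). Igfbp1, a stress-responsive binding protein for insulin-like growth factors, behaved likewise. It fell by 0.90 ± 0.07 with dexamethasone present and differed from vehicle by 1.03 after AICAR alone (interaction -1.94). The transcription factor gene Klf9 read 10.56 and 10.61 after dexamethasone and 9.36 and 9.38 after both, beside 9.45 and 9.42 in vehicle, and fell by 1.22 ± 0.08.

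Not every target followed. Fkbp5, the co-chaperone that damps receptor signalling, read 6.04 and 6.31 in vehicle, 7.55 and 7.61 after dexamethasone, 5.96 and 5.93 after AICAR alone and 8.40 and 8.45 after both. It was highest in the combination arrays and rose by 0.84 ± 0.10 (adjusted p = 0.000424), while AICAR alone gave -0.23 (interaction 1.08, adjusted p = 0.00125). The clock gene Per1 (difference -0.18 ± 0.12, adjusted p = 0.349) and the coactivator gene Ppargc1a (-0.066 ± 0.10, adjusted p = 0.701) were not called, with 95% intervals of -0.45 to 0.087 and -0.29 to 0.15. The kinase genes Sgk1 and Pdk4, which were lower after dexamethasone than in vehicle (-1.49 and -1.15), were lower again in this comparison. Sgk1 fell by 0.55 ± 0.07 and Pdk4 fell by 1.05 ± 0.08. Nr3c1, the gene of the glucocorticoid receptor itself, read 10.38 and 10.27 in vehicle, 10.12 and 9.92 after dexamethasone, 9.84 and 9.91 after AICAR alone and 9.08 and 9.05 after both. The combination arrays were lowest, and Nr3c1 fell by 0.95 ± 0.09 (adjusted p = 0.000146).

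Genes of glucose output and amino acid breakdown, the classical hepatic programme of glucocorticoids, fell in part. Pck1, the gene of the gluconeogenic enzyme phosphoenolpyruvate carboxykinase, read 12.98 and 12.95 in vehicle, 13.44 and 13.39 after dexamethasone, 13.11 and 13.12 after AICAR alone and 12.32 and 12.26 after both. The combination was the lowest of the 4 groups, and Pck1 fell by 1.13 ± 0.07 (adjusted p = 1.52e-05). Fructose bisphosphatase (Fbp1) fell by 1.30 ± 0.07, the glucose 6-phosphate transporter gene Slc37a4 fell by 0.87 ± 0.07 and the glucose carrier gene Slc2a2 fell by 0.74 ± 0.08. Over the list of 17 gluconeogenic and glucose output genes 7 fell and 2 rose, with a median of -0.14. The 2 rises, Pck2 (0.32) and Slc25a11 (0.32), are named after their values were seen, and neither was called when 1 of the combination arrays was left out. Of 30 genes for breaking down amino acids and making urea 18 fell and 2 rose, with a median of -0.41. Part of both lists still stood above vehicle in the combination. Of the 17 genes 10 were called higher than vehicle and 5 lower, beside 11 and 1 after dexamethasone. Of the 30 genes 14 were called higher and 10 lower, beside 21 and 3 after dexamethasone. Over all genes 34.4% were called in the combination against vehicle. Serine dehydratase (Sds) had the largest change among the amino acid genes. It read 7.34 and 7.41 in vehicle, 9.52 and 9.55 after dexamethasone, 6.10 and 6.15 after AICAR alone and 6.91 and 6.83 after both and fell by 2.66 ± 0.07 (adjusted p = 1.99e-07). Tyrosine aminotransferase (Tat) fell by 0.71 ± 0.07, cystathionine gamma-lyase (Cth) fell by 1.85 ± 0.07 and the branched-chain ketoacid dehydrogenase subunit gene Bckdhb fell by 2.20 ± 0.07. Bckdhb had stood 1.08 above vehicle with dexamethasone and ended -1.12 from it. Periportal hepatocyte markers, several of which are amino acid enzymes, fell in 7 of 12 cases and rose in 1, with differences of -1.35 for glutaminase 2 (Gls2) and -1.15 for histidase (Hal).

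Several genes of glycolysis and glycogen metabolism fell. The liver pyruvate kinase gene Pklr read 9.10 and 9.21 after dexamethasone and 7.61 and 7.67 after both, and fell by 1.52 ± 0.07. Neither agent alone gave Pklr a called difference from vehicle (0.053 after dexamethasone and 0.15 after AICAR). The glucokinase regulator gene Gckr fell by 1.25 ± 0.08, the liver glycogen phosphorylase gene Pygl fell by 1.38 ± 0.07 and the branching enzyme gene Gbe1 fell by 1.07 ± 0.07. Of 16 glycolysis genes 5 fell and 1 rose, and of 12 glycogen genes 6 fell and 1 rose, which became 3 falls without the second combination array.

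Fatty acid and triglyceride synthesis genes split. Lpin1, the phosphatidate phosphatase of triglyceride synthesis, read 7.94 and 7.98 in vehicle, 10.34 and 10.44 after dexamethasone, 8.39 and 8.32 after AICAR alone and 7.69 and 7.48 after both. Dexamethasone alone stood out, and with AICAR added Lpin1 fell by 2.80 ± 0.09 (6.99-fold lower, adjusted p = 3.34e-07), to below vehicle. The acetyl-CoA carboxylase gene Acaca fell by 1.64 ± 0.07, the fatty acid synthase gene Fasn fell by 1.41 ± 0.07 and Thrsp, a lipogenic regulator, fell by 1.91 ± 0.08. Each of these had stood above vehicle after dexamethasone, by 1.50, 1.03 and 1.52, and AICAR alone also left each above vehicle, by 0.67, 0.37 and 1.42. The interaction was therefore negative for all 3 (-2.30, -1.78 and -3.33). The stearoyl-CoA desaturase gene Scd read 11.73 and 11.72 in vehicle, 11.60 and 11.60 after dexamethasone, 11.82 and 11.88 after AICAR alone and 9.65 and 9.62 after both. Only the combination arrays were low, and Scd fell by 1.96 ± 0.07 (adjusted p = 6.32e-07; interaction -2.08). Srebf1, the transcription factor gene of this pathway, fell by 0.80 ± 0.08. Over the 23 genes 8 fell and 6 rose, with 3 rises without the second dexamethasone array or without the first combination array. Of 21 fatty acid oxidation and ketogenesis genes 6 rose and 5 fell, with 3 rises without the first dexamethasone array or either combination array. Cpt1a, which admits fatty acids to mitochondria for oxidation, fell by 1.24 ± 0.08, to within 0.17 of vehicle. On the same list Cyp4a1 (0.97) and Eci1 (1.78) rose, although of 2 probe sets of Eci1 only this 1 was called. Angptl4, an inhibitor of lipoprotein lipase, fell by 0.80 ± 0.07.

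Cholesterol synthesis genes were mostly higher. Of 20 measured, of 25 on the list, 17 rose and 1 fell, with a median of 0.76. The median differences from vehicle were -0.60 after dexamethasone and 0.49 after AICAR alone. Idi1, the isomerase that makes the isoprenoid building block, read 10.55 and 10.48 in vehicle, 9.49 and 9.37 after dexamethasone, 11.00 and 11.01 after AICAR alone and 11.46 and 11.47 after both. The combination arrays were the highest and the dexamethasone arrays the lowest, and Idi1 rose by 2.04 ± 0.08 (4.1-fold higher, adjusted p = 8.03e-07). The methylsterol oxidase gene Msmo1 read 10.99 and 10.93 in vehicle, 9.69 and 9.71 after dexamethasone, 11.72 and 11.71 after AICAR alone and 11.69 and 11.63 after both, and rose by 1.96 ± 0.07. Its combination arrays stood near the AICAR arrays. The squalene epoxidase gene Sqle rose by 1.88 ± 0.07 and the farnesyl diphosphate synthase gene Fdps rose by 1.38 ± 0.07. Interaction values were 1.55 for Idi1, 1.20 for Msmo1, 1.17 for Sqle and 0.51 for Fdps, all called, although Fdps lost its interaction call without the first combination array (adjusted p = 0.0506), and 8 of the 20 genes had an interaction called higher, against 11.9% of all genes, and 1 lower. The 1 fall was in Insig1, a brake on sterol-regulated transcription and itself a target of it, named after its value was seen, which read 10.18 and 10.13 in vehicle, 10.85 and 10.91 after dexamethasone, 10.61 and 10.63 after AICAR alone and 10.01 and 9.96 after both. It fell by 0.89 ± 0.07 (adjusted p = 6.26e-05).

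**Figure D3:**
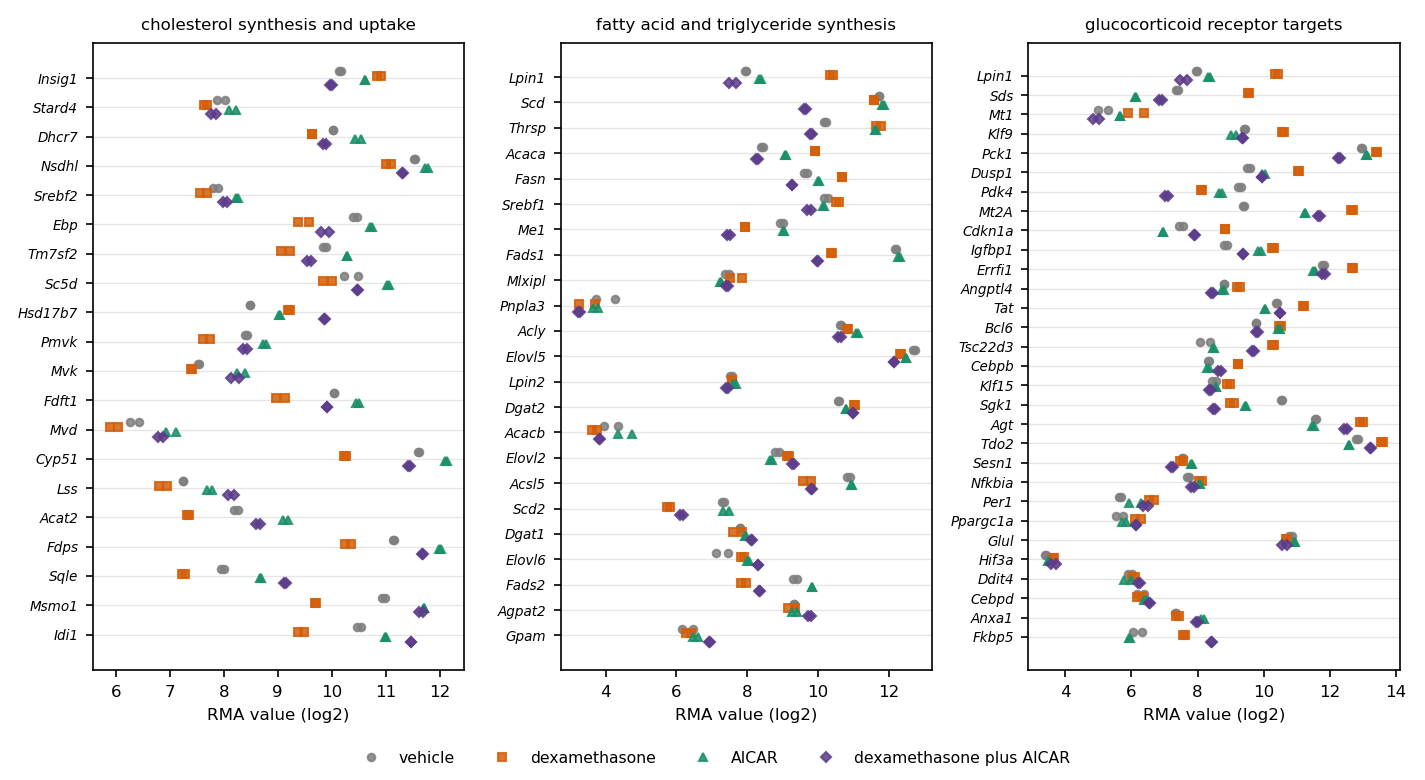
RMA values (horizontal axis, log2) of each array for sterol genes (left), fatty acid and triglyceride genes (middle) and glucocorticoid receptor targets (right), 2 arrays per group, ordered by the difference between combination and dexamethasone. Among sterol genes the combination lies right of dexamethasone for all but Insig1, whereas Lpin1 at 10.34 and 10.44 after dexamethasone lies far right of the combination.

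In bile acid synthesis the largest change was in Nr0b2, which encodes SHP, a nuclear receptor that represses bile acid synthesis genes and is induced by bile acids. Nr0b2 read 8.84 and 8.95 in vehicle, 9.15 and 9.10 after dexamethasone, 8.73 and 8.64 after AICAR alone and 4.91 and 4.75 after both. The means of the other groups lay within 0.5 of one another, and only the combination was low. It fell by 4.30 ± 0.09 (19.6-fold lower, adjusted p = 3.71e-08), with an interaction of -4.09 ± 0.12. Cyp7a1, which catalyses the slowest step from cholesterol to bile acids, rose by 0.39 ± 0.07 in this comparison against 2.11 for AICAR without dexamethasone (interaction -1.72). The 12-hydroxylase gene Cyp8b1 rose by 1.64 ± 0.08. The bile salt export pump gene Abcb11 fell by 1.12 ± 0.07 and the alternative-pathway enzyme gene Cyp27a1 fell by 0.81 ± 0.08. Of 15 genes in the list 6 fell and 3 rose.

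Genes of the endoplasmic reticulum stress response were more often higher than lower. Of 26 measured, 11 rose and 3 fell, with a median of 0.16, and the rises were in chaperones, folding enzymes and other residents of that organelle, apart from the transcription factor genes Atf3 (0.48) and Ddit3 (1.31), named after their values were seen. Creld2, a secreted resident of the endoplasmic reticulum, read 10.00 and 9.99 in vehicle, 9.89 and 9.89 after dexamethasone, 9.95 and 9.98 after AICAR alone and 11.70 and 11.72 after both. The combination arrays alone were high, and Creld2 rose by 1.82 ± 0.07 (3.52-fold higher, adjusted p = 8.29e-07; interaction 1.85). Creld2 does not stand for the list in this. After AICAR alone 9 of the 26 were called higher than vehicle, against 6.22% of all genes, and 1 lower, with a median of 0.16. The interaction was called lower for 7 and higher for 4, against 8.05% and 11.9% of all genes, with a median of -0.13. The related factor gene Manf rose by 0.85 ± 0.07. Hspa5, the gene of the central chaperone BiP, rose by 0.55 ± 0.07, and it is named here for its promoter. The 3 falls were Sesn2 (-1.37), Trib3 (-0.84) and Xbp1 (-0.79). The list also holds targets of ATF4, the transcription factor of the amino acid response. Those named here went both ways, as Sesn2 and Trib3 fell while Atf3 and Ddit3 rose. Trib3 is named after its value was seen.

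The promoters of this group are shown because several carry the endoplasmic reticulum stress element, a paired site known to be bound by the factors NF-Y and ATF6. The spelling searched was CCAAT and CCACG with 9 bases of any kind between them, on both strands, in RefSeq promoters of the rat assembly GRCr8 that run from 250 bases before to 50 after a gene's start. It was found in 22 of 33469 promoters (0.0657%) and in 6 of the 22 list genes with a promoter (27.3%), namely Calr, Creld2, Dnajc3, Hsp90b1, Hspa5 and Xbp1. A variant, ATTGG and CCACG with 1 base between them, was in 0.0508% of all promoters and in Herpud1 and Hyou1. The following are the 250 bases before each start on the plus strand, with the element in capitals, at chr7:121789134-121789383 for Creld2 (reverse orientation), chr3:38452766-38453015 for Hspa5 and chr14:84604373-84604622 for Xbp1.
Creld2: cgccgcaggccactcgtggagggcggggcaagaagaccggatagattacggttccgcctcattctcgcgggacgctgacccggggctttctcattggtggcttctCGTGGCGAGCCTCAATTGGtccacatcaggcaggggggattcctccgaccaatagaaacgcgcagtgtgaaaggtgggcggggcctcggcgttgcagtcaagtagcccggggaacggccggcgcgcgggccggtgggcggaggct
Hspa5: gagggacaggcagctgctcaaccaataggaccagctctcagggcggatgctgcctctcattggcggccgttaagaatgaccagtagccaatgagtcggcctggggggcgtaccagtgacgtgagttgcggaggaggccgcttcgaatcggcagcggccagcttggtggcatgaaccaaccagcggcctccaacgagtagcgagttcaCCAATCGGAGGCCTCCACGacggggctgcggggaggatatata
Xbp1: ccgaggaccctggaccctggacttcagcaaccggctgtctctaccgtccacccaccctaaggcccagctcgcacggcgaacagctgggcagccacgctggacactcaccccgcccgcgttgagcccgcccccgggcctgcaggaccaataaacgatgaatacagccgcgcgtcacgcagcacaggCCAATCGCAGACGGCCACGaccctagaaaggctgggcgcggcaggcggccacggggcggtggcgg
The capitals begin 145 bases before the start in Creld2, 43 in Hspa5 and 65 in Xbp1. Of these 3 genes that share the element, Creld2 and Hspa5 rose and Xbp1 fell. The other carriers gave differences of 0.53 (Calr), 0.47 (Dnajc3) and 0.72 (Hsp90b1), all called higher, and the carriers of the variant gave 0.80 (Hyou1, called) and 0.22 (Herpud1, not called). A match of letters is a description, not a site.

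The same search found a heat shock element, spelled GAA, TTC and GAA with 2 bases between each, in 0.798% of all promoters and in 4 of 10 heat shock genes, Dnaja1, Hspd1, Hspe1 and Hsph1. Of these, Hsph1, a co-chaperone of HSP70, rose by 1.25 ± 0.08 (adjusted p = 1.31e-05), while Dnaja1 (0.20 ± 0.07), Hspd1 (0.034 ± 0.07) and Hspe1 (0.12 ± 0.08) were not called. Of 11 heat shock genes measured 5 rose, with 3 rises without the first combination array. The co-chaperone gene Stip1 rose by 0.98 ± 0.11 and the small heat shock gene Hspb1 rose by 0.93 ± 0.08. A sterol regulatory element, searched in 1 exact spelling, was in 0.125% of promoters and in 0 of 16 sterol genes, and a glucocorticoid response element, likewise in 1 exact spelling, was in 0.0149% and in 0 of 27 receptor targets, which says only that these exact letters are not in these windows.

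Stress and damage genes outside those lists changed in both directions. Of 12 p53 targets 4 fell and 3 rose, with a median of 0.032. Ccng1 and Gadd45a, both on that list, rose by 1.01 and 0.96, while another p53 target, Cdkn1a, fell by 0.93 ± 0.08 from a level raised by dexamethasone. The transferrin receptor gene Tfrc, which brings iron into cells, rose by 1.66 ± 0.07. The quinone reductase gene Nqo1, a target of NRF2, rose by 1.51 ± 0.07, beside 2.06 for AICAR alone, and the haem oxygenase gene Hmox1 fell by 0.98 ± 0.10. Hmox1 is abundant in macrophages that recycle haem. Of 16 NRF2 genes 5 rose and 2 fell, and of 15 iron and metal genes 8 rose and 3 fell, with 4 rises without the first combination array. Lcn2, which encodes the iron-sequestering acute phase protein lipocalin 2, read 5.05 and 5.02 in vehicle, 5.71 and 6.06 after dexamethasone, 10.90 and 10.93 after AICAR alone and 9.59 and 9.46 after both. It rose by 3.64 ± 0.11 (12.5-fold higher, adjusted p = 2.97e-07), yet the AICAR effect was smaller with dexamethasone than without (interaction -2.24, adjusted p = 5.78e-05).

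Inflammatory mediators gave a mixed picture. On the list of 30 cytokines, chemokines and targets of NF-kB there were 8 rises and 4 falls. The monocyte chemoattractant gene Ccl2 read 4.43 and 4.40 in vehicle, 4.30 and 4.38 after dexamethasone, 4.82 and 4.85 after AICAR alone and 6.49 and 6.48 after both. It was high in the combination arrays and rose by 2.14 ± 0.07 (4.42-fold higher, adjusted p = 4.94e-07). The receptor antagonist gene Il1rn rose by 1.20 ± 0.08, the NF-kB regulator gene Nfkbiz rose by 1.10 ± 0.09 and the cytokine gene Il1a fell by 0.81 ± 0.07. Interferon-stimulated genes were lower in 8 of 20 cases and higher in 1, with a median of -0.21. The antiviral gene Mx1 read 6.60 and 6.48 in vehicle, 7.54 and 7.53 after dexamethasone, 6.80 and 6.70 after AICAR alone and 5.94 and 5.97 after both and fell by 1.58 ± 0.08. Ifit3 fell by 1.24 ± 0.10, Ifit2 fell by 1.13 ± 0.07 and Rsad2 fell by 0.96 ± 0.08. The other 11 genes were not called, among them Isg15, a ubiquitin-like modifier from the same programme. Isg15 read 11.84 and 11.97 after dexamethasone and 11.80 and 11.76 after both (-0.12 ± 0.09, adjusted p = 0.397). Acute phase proteins of hepatocytes showed 3 rises and 3 falls in 19 genes, and the rises came to 1 without the first dexamethasone array or either combination array.

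The largest rises were elsewhere. Sqor, the mitochondrial enzyme that oxidises hydrogen sulfide, read 5.79 and 6.28 in vehicle, 6.11 and 6.27 after dexamethasone, 8.72 and 8.64 after AICAR alone and 10.27 and 10.37 after both. It rose by 4.13 ± 0.15 (17.6-fold higher, adjusted p = 6.32e-07), beside 2.65 for AICAR alone (interaction 1.49). Fabp4, a fatty acid-binding protein of fat cells, endothelium and macrophages, read 4.89 and 4.50 in vehicle, 4.59 and 4.66 after dexamethasone, 4.71 and 4.79 after AICAR alone and 8.10 and 8.07 after both. The 6 other arrays lay within 0.5 of one another, and Fabp4 rose by 3.46 ± 0.12 with an interaction of 3.40. The neuropeptide gene Npy rose by 2.55 ± 0.07, the guanine nucleotide exchange factor gene Dock11 rose by 2.79 ± 0.09, the antiviral protease gene Fam111a rose by 2.49 ± 0.07, the cold-inducible RNA-binding protein gene Rbm3 rose by 2.21 ± 0.09 and the protein C receptor gene Procr rose by 2.30 ± 0.11. The dexamethasone mean of Procr was under 3.84.

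The MHC class I genes RT1-N2, RT1-A and RT1-CE12 were also among the largest rises. RT1-N2 read 7.14 and 6.95 in vehicle, 3.84 and 3.51 after dexamethasone, 4.47 and 4.36 after AICAR alone and 8.70 and 8.75 after both, and its dexamethasone mean was under 3.84. RT1-CE12 read 11.24 and 11.55 in vehicle, a mean of 9.11 ± 0.17 (SD, n = 2) after dexamethasone, 9.41 and 9.46 after AICAR alone and 11.74 and 11.81 after both, and RT1-A read 8.02 and 7.98 in vehicle, 5.48 and 4.72 after dexamethasone, 7.64 and 7.83 after AICAR alone and 7.80 and 7.75 after both. For RT1-CE12 and RT1-N2 both single-agent groups were lower than vehicle and the combination. For RT1-A the dexamethasone group alone was low, and its 2 arrays stood apart from each other. RT1-N2 rose by 5.05 ± 0.12, RT1-A rose by 2.68 ± 0.20 and RT1-CE12 rose by 2.66 ± 0.12. Class I genes of the rat are near-identical copies that differ between haplotypes, so a probe set may read several of them and these values are uncertain. Haplotype differences between the animals were not tested.

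Few cell proliferation genes were called. Dexamethasone had lowered 26 of the 31 against vehicle (median -1.41; 14.3% of all genes were lowered), and AICAR added to it gave 2 rises and 2 falls with a median of -0.023. The mitotic kinase gene Cdk1 read 7.53 and 7.38 in vehicle, 4.32 and 4.20 after dexamethasone, 6.49 and 7.01 after AICAR alone and 4.10 and 4.37 after both. Its dexamethasone and combination arrays overlapped, with a difference of -0.024 ± 0.16 (adjusted p = 0.941, 95% interval -0.39 to 0.35). The exception was Ccnd1, the G1 cyclin gene, which read 8.91 and 8.92 in vehicle, 6.37 and 6.59 after dexamethasone, 7.84 and 7.81 after AICAR alone and 8.68 and 8.67 after both and rose by 2.19 ± 0.09 (adjusted p = 1.15e-06), to -0.24 from vehicle. AICAR alone gave Ccnd1 -1.09, and the interaction was 3.28. The calls of Pcna (-0.28), Bub1b (0.29) and Ccna2 (-0.66, with a level under 3.84) were each lost without 1 or more arrays.

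Small shifts of whole classes were seen in ribosomal protein genes. All 11 measured, of 26 on the list, rose, by 0.25 to 0.52, with a median of 0.35. Rps3, of the small subunit, rose by 0.52 ± 0.07 and Rpl11, of the large subunit, rose by 0.48 ± 0.07. The count was 6 without the first dexamethasone array, 4 without the first combination array and 7 without the second. The 22 respiratory chain genes gave a median of -0.045 and 1 call, a fall in the succinate dehydrogenase gene Sdhb (-0.32), which was lost without the second dexamethasone array or either combination array.

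On the pathway that the design addressed, AMPK and its partners, calls went in both directions, as they did over all genes. On a list of 23 subunit and partner genes of AMPK, of p38 MAPK and of the receptor, 5 fell and 3 rose, with a median of -0.023. Over all genes 11.3% were called lower and 14.0% higher, so these counts are not read as a change of the pathway. The falls came to 3 without the second dexamethasone array or either combination array, and the rises to 1 without the first combination array. Prkaa2, the catalytic alpha subunit gene of AMPK that dominates in muscle and is also found in liver, fell by 0.70 ± 0.07 from a level raised by dexamethasone (0.76). The regulatory subunit genes Prkab1 and Prkag2 went opposite ways, as Prkab1 fell by 0.48 ± 0.07 and Prkag2 rose by 0.57 ± 0.08. RNA levels say nothing of kinase activity, which was not measured here. Purine genes, which lie on the route that ZMP enters, gave 6 rises and 2 falls in 24. Atic, the enzyme that uses ZMP, rose by 0.61 ± 0.07 (adjusted p = 0.00062), and adenine phosphoribosyltransferase (Aprt) rose by 0.55 ± 0.08. The rises came to 3 without the first dexamethasone array or the first combination array.

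Rapid-response and cell death genes changed in both directions. Of 17 immediate early genes 4 fell and 4 rose, and the rises came to 2 without the first dexamethasone array and 1 without the first combination array. The growth-induced transcription factor gene Egr1 fell by 1.68 ± 0.11, Zfp36, which speeds the decay of cytokine RNAs, fell by 0.80 ± 0.08, and the AP-1 subunit gene Jun rose by 0.57 ± 0.09. Of 17 apoptosis regulators 5 rose and 4 fell, with 3 rises without the first dexamethasone array or either combination array and 2 falls without either combination array. The death receptor gene Fas read 6.89 and 6.92 in vehicle, 5.61 and 6.08 after dexamethasone, 6.84 and 6.89 after AICAR alone and 7.08 and 7.26 after both. Its dexamethasone arrays were low and its combination arrays were somewhat above vehicle, and Fas rose by 1.32 ± 0.14 (adjusted p = 0.000301). The BH3-domain gene Bid rose by 0.99 ± 0.07, the related killer gene Bcl2l11 fell by 1.12 ± 0.10 and the survival gene Bcl2a1 fell by 0.75 ± 0.07. Fas and Bcl2l11 have 3 probe sets each, of which only the 1 given here was called.

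Among hepatocyte regulators, the epidermal growth factor receptor gene Egfr fell by 1.85 ± 0.07 and the transcription factor gene Onecut1 fell by 1.71 ± 0.09. Onecut1 gave -1.84 for AICAR without dexamethasone, and its interaction was not called (0.13, adjusted p = 0.544). Of 16 hepatocyte transcription factor genes 6 fell and 1 rose. Of 14 genes of the insulin-like growth factor axis and insulin signalling 8 fell, with a median of -0.34, including Igfbp3 (-0.92) and Socs2 (-0.66). Of 22 cytochrome P450 and xenobiotic receptor genes 10 fell, including Cyp1a1 (-1.39), and 4 rose, including Cyp4a3 (1.94) and Cyp2c7 (0.77). Of 18 clock genes 6 fell and 3 rose, with 1 rise without the second combination array. On that list the core repressor gene Per2 rose by 1.29 ± 0.08 and the nuclear receptor gene Nr1d2, another clock repressor, fell by 1.34 ± 0.08.

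**Figure D4:**
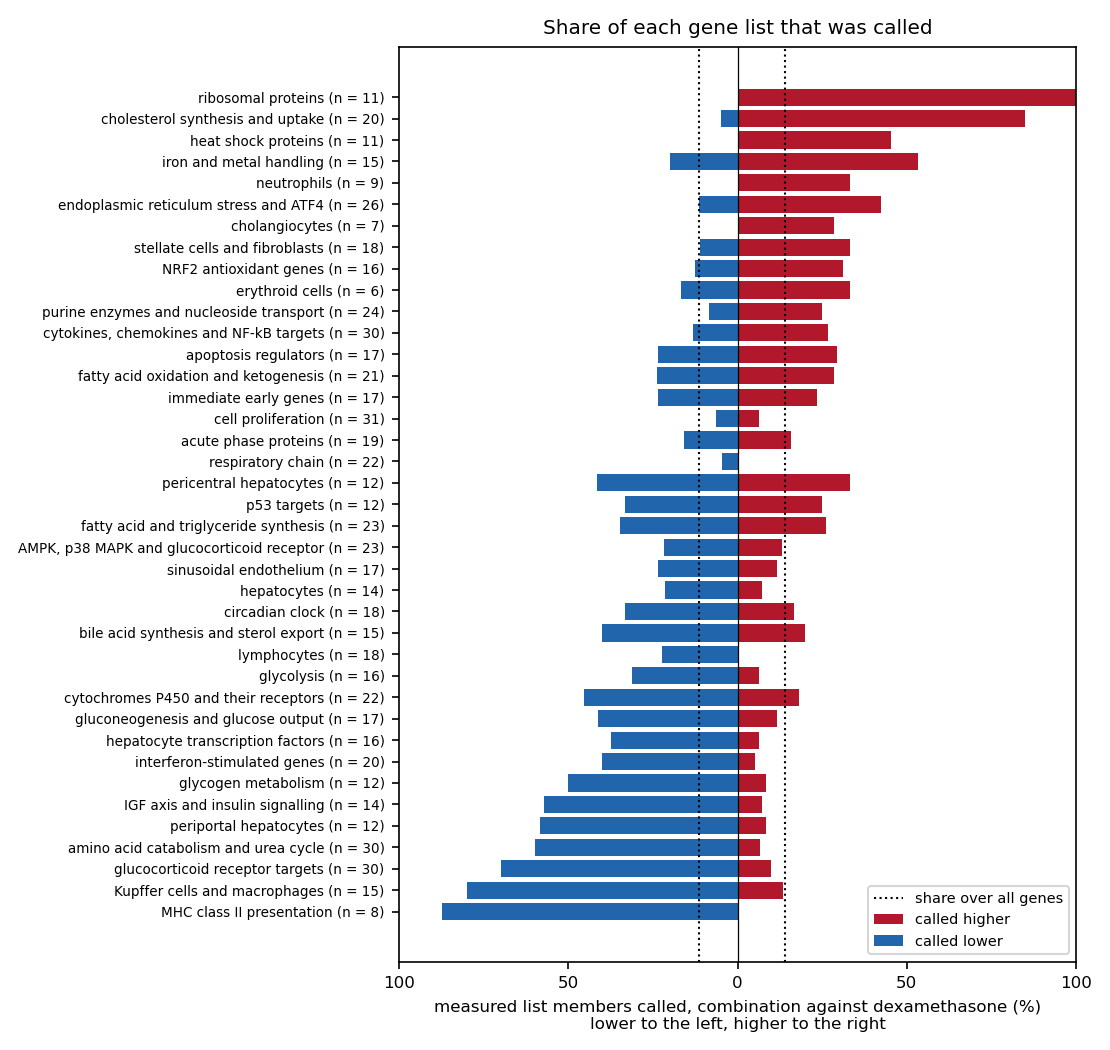
Percentage of the measured members of each gene list that were called lower (bars to the left) or higher (bars to the right) in the combination against dexamethasone, with the number measured beside each name. Dotted lines mark the share over all genes, 11.3% lower and 14.0% higher, and the bars show counts of members with no test of the list.

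A set of 371 genes (2.61% of all) had changed at least 2-fold with dexamethasone against vehicle, 144 higher (1.01%) and 227 lower (1.6%), and was divided by what AICAR did to them. Reversed genes were called in the opposite direction, extended genes were called in the same direction, and spared genes had a 95% interval of the difference within 0.5 of 0. A gene that met the spared rule was counted there even where its small difference was called. Of the 371, 150 were reversed, 90 spared and 85 extended, and 46 met none of these rules. Of the 144 genes raised by dexamethasone 97 (67.4%) were reversed, 26 spared and 13 extended. Of the 227 lowered genes 53 (23.3%) were reversed, 64 spared and 72 extended. The background here is that 14.0% of all genes were called higher and 11.3% lower. The class rule uses the dexamethasone arrays on both sides, so these counts are a description.

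Reversal was mostly partial. Of the 150 reversed genes 15 lost under 25% of their dexamethasone difference, 42 between 25% and 50%, 61 between 50% and 100%, and 32 lost all of it or more, with a median of 66.9%. In 35 of the 150 the combination was not called against vehicle, while 34.4% of all genes were called in that comparison. Noct, which encodes a rhythmic phosphatase of metabolism, read 4.73 and 4.81 in vehicle, 8.24 and 8.08 after dexamethasone, 4.54 and 4.55 after AICAR alone and 5.47 and 5.41 after both. It lost 80.2% of its dexamethasone difference and fell by 2.72 ± 0.08. The zinc finger gene Zfp354a fell by 2.59 ± 0.07, which undid 60.5%. The carboxylesterase gene Ces2c, with the largest dexamethasone response of all, gave back 8.11%. It read 13.07 and 13.00 after dexamethasone and 12.49 and 12.59 after both (-0.49 ± 0.14), a call lost without any 1 of those 4 arrays (adjusted p from 0.0934 to 0.166). The retinol-binding protein gene Rbp7 likewise lost its call (-0.74, adjusted p from 0.0875 to 0.144). The lysolipid transporter gene Mfsd2a fell by 0.76 ± 0.07, the sugar transporter gene Slc5a11 fell by 1.37 ± 0.15 and the translation repressor gene Eif4ebp3 fell by 0.45 ± 0.07. Inmt, a methyltransferase gene that dexamethasone had placed at -3.98 from vehicle, rose by 0.70 ± 0.13, with a call lost without the first combination array (adjusted p = 0.0508).

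Spared genes lay within 0.5 of their dexamethasone level by the rule. A2m, a protease inhibitor that is the classical acute phase protein of the rat, read 9.56 and 9.43 in vehicle, 13.73 and 13.69 after dexamethasone, 7.49 and 7.72 after AICAR alone and 13.75 and 13.77 after both. Dexamethasone and combination arrays lay together and far above vehicle, although AICAR alone gave A2m a difference of -1.89 from vehicle (interaction 1.93, adjusted p = 4.64e-05). The sterol exporter gene Abcg5 read 5.67 and 5.82 after dexamethasone and 5.99 and 5.56 after both, beside 8.40 and 8.27 in vehicle. Of the 90 spared genes 10 were on the proliferation list (31 of the 14217 genes), including Cdk1, Ccnb2, Ect2 and Pclaf. Another 8 genes of that list changed at least 2-fold with dexamethasone but met none of the rules, so sparing was not shown for them. Ect2 lay under 3.84 after dexamethasone and after both, as did the combination means of 4 proliferation genes in all, where the size of a further fall is uncertain. Cyp4a8, a fatty acid hydroxylase gene, gave a small called difference of -0.29 ± 0.07 within the band, a call lost without 3 of the 4 arrays compared.

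Extended genes moved further in the direction that dexamethasone had set. Of the 85, 7 were on the list of macrophage markers (15 of the 14217 genes), Cd5l among them. The adaptor gene Stac3 read 12.11 and 12.15 in vehicle, 10.13 and 10.17 after dexamethasone, 11.64 and 11.57 after AICAR alone and 7.01 and 7.11 after both, and fell by 3.09 ± 0.07 (adjusted p = 9.75e-08). The neuronal regeneration-related gene Nrep fell by 2.07 ± 0.07 and the sulfotransferase gene Sult1c3 fell by 0.85 ± 0.07. The odorant-binding protein gene Obp1f was an extended rise, and read 4.98 and 4.92 in vehicle, 7.08 and 7.02 after dexamethasone and 7.85 and 7.99 after both (0.87 ± 0.08). The inhibitory receptor gene Pilra fell by 0.78 ± 0.09, with 1.52 for AICAR alone and an interaction of -2.29. The bile acid and drug carrier gene Slco1a4 gave -0.34 ± 0.07, a call lost without the second dexamethasone array or the first combination array (adjusted p = 0.0531 and 0.0857).

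A further 88 genes were called and changed at least 2-fold with AICAR although dexamethasone against vehicle was not called and its 95% interval lay within 0.5 of 0, 51 higher and 37 lower. For 34 of these AICAR without dexamethasone was called in the same direction, for 3 it was called in the opposite direction and for 51 it was not called, beside 15.2% of all genes called. The interaction was called for 75 of the 88, beside 20.0% of all genes. These genes were chosen by a large called difference that is itself part of the interaction. A high share is therefore built into the rule, and the count is a description. Nr0b2, Sqor, Fabp4, Fam111a and Ccl2 belonged here. The protease inhibitor gene Serpinb9b rose by 2.18 ± 0.10 beside 0.90 for AICAR alone. The G protein regulator gene Rgs4 read 4.34 and 4.31 in vehicle, 4.20 and 4.55 after dexamethasone, 4.45 and 4.30 after AICAR alone and 6.27 and 6.48 after both, and rose by 2.00 ± 0.13, with AICAR alone at 0.045 from vehicle. The aldo-keto reductase gene Akr1b7 rose by 2.12 ± 0.12 from a dexamethasone mean under 3.84.

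**Figure D5:**
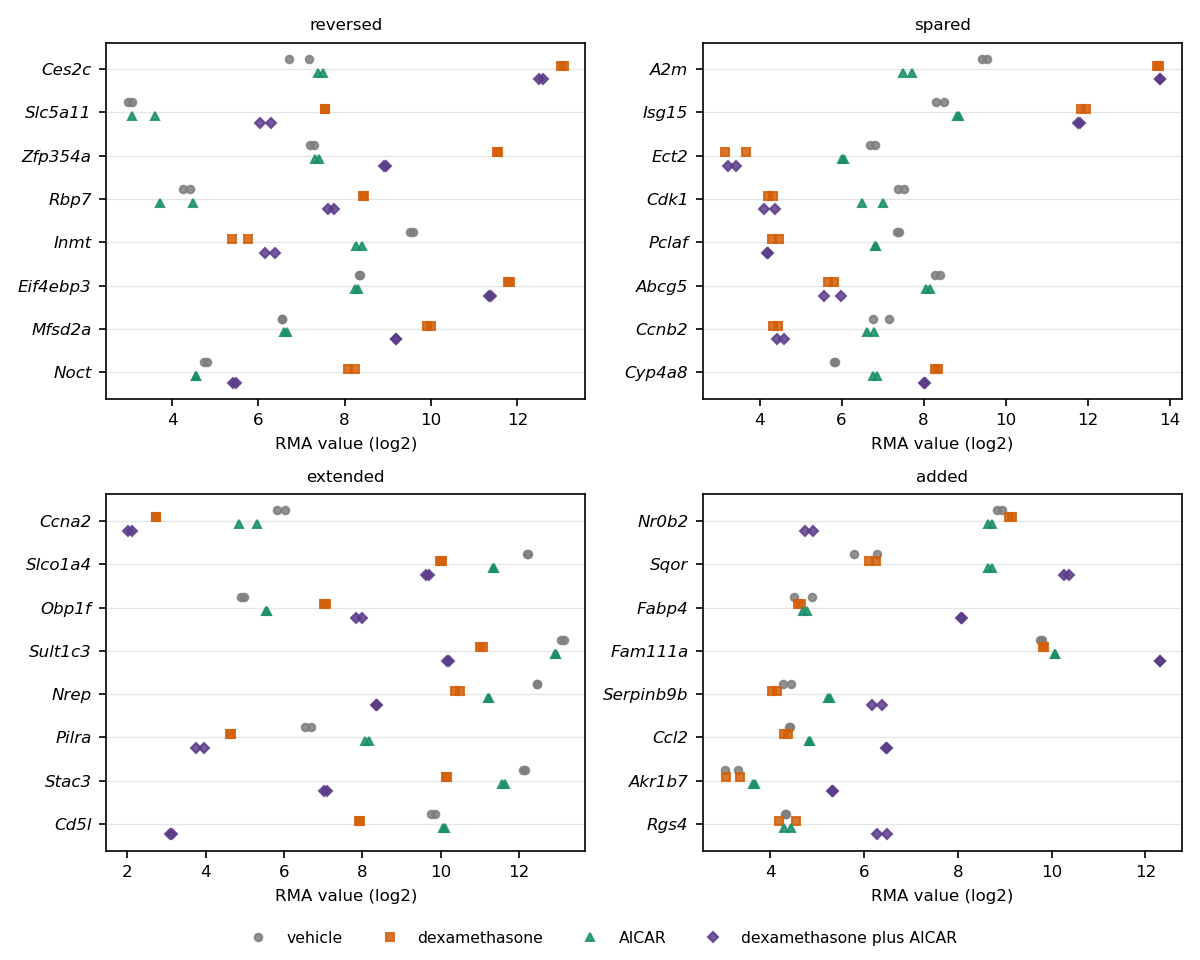
RMA values (horizontal axis, log2) of each array for the 8 genes with the largest dexamethasone change among reversed, spared and extended genes and the 8 with the largest change among added genes, 2 arrays per group. Combination arrays lie between dexamethasone and vehicle for reversed genes, close to the dexamethasone arrays for spared genes (group means within 0.5), beyond them for extended genes, and alone for most added genes, such as Fabp4 at 8.10 and 8.07.

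The interaction asks whether the AICAR effect with dexamethasone differed from that without. It was called at 4858 of 31042 probe sets (15.6%), 2679 higher (8.63%) and 2179 lower (7.02%), and this balance turned with the scaling of the arrays, from 55.1% higher as deposited to 47.4% with cyclic loess and 44.0% with centring on brighter probe sets. For scale, 18.4% of probe sets were called for dexamethasone against vehicle and 12.9% for AICAR against vehicle. The interaction count was 3130 without the first AICAR array, 2910 without the first combination array and 3041 without the second. Of the 3606 genes called in the combination against dexamethasone, 2021 (56.0%) were also called in the interaction. The interaction contains the difference by which those genes were chosen, so part of this overlap is built in. Cd5l gave the most negative interaction of the named genes (-5.10 ± 0.10), as it read 0.28 above vehicle after AICAR alone. C1qb (-4.77) and Ccl6 (-4.18) followed. The most positive values were those of RT1-N2 (7.68) and RT1-CE12 (4.63), where the near-identical copies leave the gene uncertain, and then Fabp4 (3.40) and Ccnd1 (3.28).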

How the data were processed

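Liver RNA was measured on 8 Affymetrix rat expression arrays, 2 per group. The values the authors deposited are log2 expression from RMA, and the submitters' processing notes also name affy. Versions are not given in the sources used here, and the base of the logarithm was inferred from the range of the values (1.96 to 14.74). RMA sets all arrays to a common distribution, which hides a shift of all genes, and compresses changes of dim probe sets. Array medians were 5.22 to 5.27.

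Of 31099 probe sets, 57 array controls were left out. Of the 31042 tested, 20826 had 1 gene symbol, 436 several and 9780 none here. Names came from the platform annotation and were checked by gene ID against GRCr8 names (20758 of the 20826 matched). A gene was represented by its single-symbol probe set with the highest mean over all arrays. Promoters are from RefSeq, GRCr8.

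All 8 arrays were fitted in limma 3.58.1 (R 4.3.3), each group having its own coefficient, and the variances were moderated by eBayes, whose prior added 4.58 degrees of freedom to the 4 residual ones. P-values were adjusted by Benjamini-Hochberg over the 31042 probe sets. The interaction is the AICAR effect with dexamethasone minus that without. Exact permutation of 2 arrays against 2 cannot go below p = 0.333 and was not used. Precision is limited by the number of arrays. The labels do not state whether arrays with the same replicate number were handled together, and the main fit did not pair them. Correlations of same-number deviations between groups were -0.042 to 0.16, which cannot decide this. The fit was tested on simulated data for the combination against dexamethasone (31042 probe sets, 50 changed at each size). It recovered 42% at a log2 size of 0.5, 94% at 1 and 100% at 2 and 3, and made 4 false calls. Far fewer probe sets were changed there than the 6233 called in the data, and the noise was independent and normal. The adjusted cut-off was therefore stricter in the simulation, and neither its recovery nor its false calls carry over to the data.

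The comparisons, the 39 gene lists (634 of 718 symbols measured) and the naming rule were chosen with earlier results of these data known. The rule named the 12 largest rises and falls, up to 4 called members per list, 8 genes per class, 6 genes per sign of the interaction, and a panel of 22 genes, of which 19 were matched; the others are not reported here. Other names in the text, including the promoter carriers, were chosen after their values were seen. The alternatives left out dim probe sets or each array in turn, fitted only the 4 arrays compared, added a replicate block or a 2-fold minimum, averaged a gene's probe sets, rescaled the arrays by cyclic loess or by centring on brighter probe sets, and let the prior follow the level robustly.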

Additional observations from a re-analysis of the deposited data

Results flagged for a closer look

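The AICAR effect differed between rats with and without dexamethasone, by the interaction term in limma, at 4858 probe sets. Among glucocorticoid-responsive and metabolic genes the difference was negative on the log2 scale for Lpin1 (-3.20), Mt2A (-2.86), Lcn2 (-2.24), Igfbp1 (-1.94), Fasn (-1.78), Cyp7a1 (-1.72), Cpt1a (-1.34), Pck1 (-1.27), Tsc22d3 (-0.87), Angptl4 (-0.78), Srebf1 (-0.74), Per1 (-0.61), Nr3c1 (-0.50), Pdk4 (-0.48) and Tat (-0.36). It was positive for Fkbp5 (1.08) and Sgk1 (0.52). The calls of the smaller differences depended on single arrays. That of Tat was lost without any 1 of the 8 arrays and with the replicate block (adjusted p = 0.0529), that of Per1 without any 1 of 7 arrays, Nr3c1 of 6, Pdk4 of 3 and Sgk1 of 1.

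The most negative differences were those of Cd5l (-5.10), C1qb (-4.77), Ccl6 (-4.18), Nr0b2 (-4.09), RT1-Bb (-4.03) and C1qa (-4.01). The most positive were those of RT1-N2 (7.68), RT1-CE12 (4.63), Fabp4 (3.40), Ccnd1 (3.28), RT1-A (2.94) and Npy (2.88).

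The 5S ribosomal RNA control, which enters no comparison of genes, had a mean of 7.51 after both agents, above its 6.29 in vehicle.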

How the results depend on the processing

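With a 2-fold minimum the calls came to 548 for the combination against dexamethasone, 767 for the interaction, 605 for dexamethasone against vehicle and 169 for AICAR against vehicle, with 71 genes reversed, 28 extended and 86 called on the lists in place of 313. Leaving out each array in turn gave 3698 to 5985 calls in the combination against dexamethasone (6233 with all), 2910 to 3991 in the interaction (4858), 3738 to 5303 for dexamethasone against vehicle (5726) and 1447 to 3819 for AICAR against vehicle (4011). AICAR against vehicle also moved to 6048 with a trended and robust prior and to 2345 in a fit of its 4 arrays. With the replicate block, which pairs arrays by their replicate number, 6041 probe sets were called. The share called higher went from 55.1% to 44.0% for the interaction, from 47.0% to 57.6% for dexamethasone against vehicle and from 42.2% to 56.1% for AICAR against vehicle with centring, and from 50.6% to 45.5% for the combination against dexamethasone with cyclic loess. The cause of these shifts was not tested. Of 180 named genes called in the combination against dexamethasone, 159 kept call and direction in every alternative run other than the 2-fold minimum, 21 lost the call in at least 1, and 0 reversed. Of 158 named genes called in the interaction, 133 kept the call in each of the same alternatives that gave a value, 25 lost it in at least 1, and 0 reversed. Arrays of 2 per group and signal near background limit the size of changes in dim genes.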
